A study of Mus musculus with 20 samples.

Results

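Transcripts of 10 genes that encode NF-kB subunits and the proteins that hold NF-kB in check were followed in eosinophils and macrophages of the mouse colon. The genes, taken by name out of the 50600 gene names of each table, were the subunits Rela, Rel, Nfkb1, Nfkb2 and Relb, the inhibitors Nfkbia, Nfkbie, Nfkbiz and Bcl3, and the deubiquitinase Tnfaip3. All 10 were found in both tables and all 10 passed the filter on low values in every comparison. The groups were tumor eosinophils (7 libraries), naive eosinophils (2), tumor macrophages (6) and naive macrophages (5). Tumor cells came from colons of mice that carried tumors after an induction labelled CAC, and the agents of that induction are not named in the labels. Naive cells came from colons of naive mice labelled as controls. All mice were of the C57BL/6 strain and labelled wild type, with no age or sex given. Both cell types were sorted by flow cytometry from enzymatically digested tissue, and RNA was read by CEL-Seq, which captures the 3′ end of polyadenylated transcripts. Nothing in the labels ties libraries to separate animals, so p-values measure the spread between libraries only. In sorted bulk RNA, fewer cells that express a gene and less RNA per cell cannot be told apart.

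NF-kB is a family of dimeric transcription factors built from RelA, c-Rel, RelB, p50 (from Nfkb1) and p52 (from Nfkb2). In resting cells IkB proteins such as IkBα (Nfkbia) and IkBε (Nfkbie) keep the dimers in the cytoplasm. Receptors for microbes, TNF and interleukin-1 activate the IKK kinase complex, which marks IkB for destruction in the canonical arm, whereas the kinase NIK and IKKα drive processing of p100 to p52 in the noncanonical arm. Several members are themselves induced by NF-kB and close negative feedback loops, among them Nfkbia and Tnfaip3, which encodes the ubiquitin editor A20. Bcl3 and Nfkbiz encode atypical IkB proteins that act in the nucleus on p50 and p52 dimers. In gut myeloid cells the pathway is known for its part in responses to microbes and in colitis-associated tumor growth.

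The DNA before the start of 3 members is shown because their log2 changes in tumor eosinophils were of opposite sign and because kB sites are the elements through which the feedback genes are known to be induced. A kB-type motif, read as 3 G, 2 free bases, 2 T, 1 free base and 2 C, was searched on both strands in the 250 bases before each annotated start in RefSeq (GRCm38.p6). The motif was chosen with these promoters in view, so its share among them beside other genes is no test of enrichment. Promoters of 7 of the 10 genes were matched (not Nfkb1, Relb and Nfkbiz). The motif was found in 4 of those 7 genes (Nfkb2, Rel, Nfkbia and Tnfaip3) and in 4.71% of the 27025 genes with a promoter in that table. Some matches in Nfkb2 and Rel overlap one another. Capitals mark the match, and each sequence reads 5′ to 3′ along the gene. Nfkbia is given from 250 to 1 bases before its start (chr12:55492648-55492897, minus strand), Tnfaip3 from 30 to 1 (chr10:19015411-19015440, minus strand) and Bcl3 from 250 to 16 (chr7:19822771-19823005, minus strand).
Nfkbia: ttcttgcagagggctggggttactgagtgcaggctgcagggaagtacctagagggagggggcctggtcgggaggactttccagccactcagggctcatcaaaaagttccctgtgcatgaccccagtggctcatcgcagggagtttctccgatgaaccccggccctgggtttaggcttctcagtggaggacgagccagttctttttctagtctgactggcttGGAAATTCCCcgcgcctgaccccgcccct
Tnfaip3: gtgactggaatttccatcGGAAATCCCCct
Bcl3: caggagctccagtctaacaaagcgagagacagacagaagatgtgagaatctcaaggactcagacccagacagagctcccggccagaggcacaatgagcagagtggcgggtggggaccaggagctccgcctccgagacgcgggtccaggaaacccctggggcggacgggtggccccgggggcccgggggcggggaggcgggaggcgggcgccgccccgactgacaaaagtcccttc
The Nfkbia match lies 29 to 20 bases and the Tnfaip3 match 12 to 3 bases before the RefSeq start. GENCODE M21 places the Tnfaip3 start further upstream, at 19015657, so by that annotation the printed Tnfaip3 stretch lies inside the gene. A second RefSeq promoter of Tnfaip3 held 0 matches. The Nfkbia and Tnfaip3 matches read as the motif on the strand opposite to the one printed. The letters of the motif did not occur in the Bcl3 stretch, nor in the same window of Rela and Nfkbie. In tumor eosinophils Nfkb2 and Rel, which hold matches, had log2 changes of 1.80 and 0.10. Rela and Nfkbie, which hold none, had 0.96 and −0.14. The changes of Rel (SE 0.41) and Nfkbie (SE 0.43) were smaller than their standard errors and give no direction. A relation between match and direction was not tested. A match describes the letters and does not show binding.

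Recovered depth was 1978466 to 8520874 reads in tumor eosinophils, 4452513 and 7469714 in naive eosinophils, 2289383 to 7636153 in tumor macrophages and 1477255 to 7945096 in naive macrophages. Eosinophil identity genes (12, among them Siglecf, Ccr3 and Epx) summed to 833 to 9770 CPM in tumor eosinophils and 1840 to 2590 CPM in naive eosinophils, against 17.6 to 90 CPM in macrophages. Within that list Siglecf, Ccr3 and Il5ra fell in tumor eosinophils (−1.89, −1.52 and −1.82), while the granule genes Prg3 and Ear1 had log2 changes of 4.16 and 3.61 that did not pass, and 0 of 12 were called higher. Macrophage identity genes (15, among them Csf1r and C1qa) summed to 1020 to 1660 CPM in tumor eosinophils and 364 to 553 CPM in naive eosinophils, against 23100 to 34900 CPM in tumor macrophages and 20600 to 28100 CPM in naive macrophages. Of the 12 macrophage identity genes tested in eosinophils, 5 were called higher in tumor libraries. Neutrophil genes (16) summed to 4880 to 15100 CPM in tumor eosinophils and 6490 to 11500 CPM in naive eosinophils, with 6 of 15 tested called higher in tumor libraries. In macrophages they summed to 142 to 912 CPM in tumor libraries and 46.7 to 71.3 CPM in naive ones. Of 15 macrophage identity genes, Mrc1, Cd163, Cx3cr1 and Maf fell in tumor macrophages and Cd14 rose, with Cd163 at 2.38 ± 0.672 in tumor and 221 ± 70.8 in naive libraries (SD, n = 6 and 5). Tumor macrophages also had 7 of 10 dendritic cell genes and 6 of 9 stromal and endothelial genes called lower, and 4 of 11 epithelial genes called higher and 1 lower. T and NK cell genes summed to 110 to 221 CPM in tumor and 451 to 572 CPM in naive macrophages. B and plasma cell genes (12) summed to 9390 to 72500 CPM in tumor and 18200 to 75700 CPM in naive macrophages. Tumor macrophage libraries 3 and 4 held 9390 CPM each, against 50000 and 72500 CPM in libraries 1 and 2. In eosinophils these genes summed to 7320 to 17600 CPM in tumor and 4490 to 7630 CPM in naive libraries. None of them was called between tumor and naive libraries in either cell type. The part of these markers in the results was not tested. Tumor eosinophil libraries 1 to 3 stood apart from 4 to 7 over the higher-expressed genes, 3009 to 3158 per pair of libraries. Log2 levels differed with an SD of 0.46 to 0.65 within those 2 sets and 0.64 to 0.997 between them, ranges that overlap slightly. Mitochondrial transcripts took 15.2 to 23.9% of reads in libraries 4 to 7 and 25.1 to 35.2% in 1 to 3. Among macrophages, tumor libraries 1 and 2, 3 and 4, and 5 and 6 resembled each other more closely than other pairs did (SD 0.24 to 0.33, against 0.42 to 0.56), as did naive libraries 2 and 4 (0.27). None of these pairs agreed within sampling noise.

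In tumor eosinophils, 2 of the 10 genes passed the test, in opposite directions. Bcl3, a nuclear partner of p50 and p52, rose 3.87-fold, and Tnfaip3, the A20 brake on the pathway, fell 2.50-fold. Over all 12967 genes tested, 4.61% were called in tumor against naive eosinophils (limma on log2(value + 1), Benjamini-Hochberg adjusted p under 0.05), 2.42% higher and 2.19% lower. In tumor macrophages, 3 of the 10 genes passed, against 17.1% of 11520 genes tested (8.5% higher and 8.59% lower): Bcl3 rose 1.89-fold, while Nfkbia and Nfkbiz fell 1.33-fold and 1.37-fold. The median log2 change of the 10 was 0.21 in eosinophils and 0.13 in macrophages, beside 0.009 and 0.025 over all genes tested. The sign of the log2 change was the same in both cell types for 7 of the 10, positive for 4 and negative for 3. This count includes uncalled changes, and the share over all genes was not computed, so it shows no concordance. Within it, the eosinophil signs of Nfkb1 and Nfkbiz each turned in 3 of 20 alternatives. Values are the deposited normalised reads unless another scale is named, and each ± is the standard error of a log2 change.

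**Figure D1:**
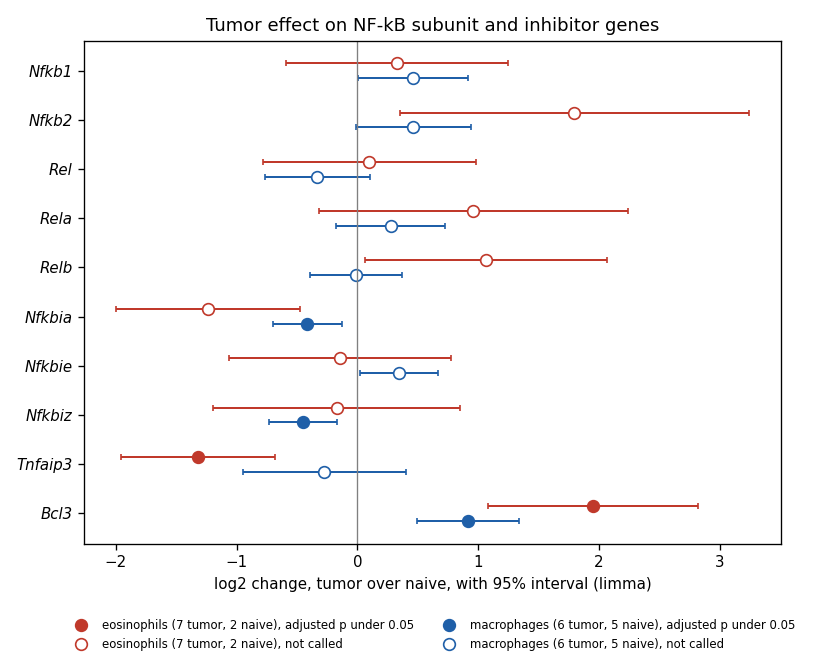
Log2 change of each gene, tumor over naive, with its 95% interval from limma, for eosinophils (red, 7 tumor and 2 naive libraries) and macrophages (blue, 6 tumor and 5 naive libraries). Filled points have an adjusted p under 0.05: Tnfaip3 and Bcl3 in eosinophils, and Nfkbia, Nfkbiz and Bcl3 in macrophages. The intervals of the 5 subunits overlap between the cell types.

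None of the 5 subunits passed the test in either cell type. Rela encodes p65, the main transactivating subunit. Rela was lowest at 28.3, median 63.5 and highest at 109 in the 7 tumor eosinophil libraries, against 56.9 and 15.7 in the 2 from naive colon. It had 13 to 127 recovered reads per eosinophil library, and its log2 change of 0.96 ± 0.59 did not pass (limma adjusted p = 0.406). In macrophages Rela was lowest at 62.9, median 81.91 and highest at 119.9 in the 6 tumor macrophage libraries, against 80.2, 88.4, 50.2, 94.7 and 54.6 in the 5 from naive colon. The ranges overlapped in both cell types (macrophage log2 change 0.28 ± 0.21, limma adjusted p = 0.416).

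Rel encodes c-Rel, a subunit known for its role in cytokine genes of lymphoid and myeloid cells. Its level was 365, 645 and 951 (lowest, median and highest of 7) in tumor eosinophils, against 831 and 409 in naive eosinophils. Both naive values lay inside the tumor range, and the log2 change was 0.10 ± 0.41 (limma adjusted p = 0.924). In the other cell type it was 754, 844.9 and 1668 (lowest, median and highest of 6) in tumor macrophages, against 936, 1402, 1199, 1571 and 1159 in naive macrophages. Tumor macrophage libraries 5 and 6, at 1254 and 1668, lay within or above the naive range, whereas the other 4 tumor libraries lay below every naive library (log2 change −0.33 ± 0.21, limma adjusted p = 0.3).

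Nfkb1 encodes p105, which is processed to p50 and also binds the kinase TPL2. It was at 536, 1084 and 1358 (lowest, median and highest of 7) in tumor eosinophils, against 474 and 1034 in naive eosinophils. Naive library 1 lay below the tumor range and naive library 2 inside it (log2 change 0.33 ± 0.42, limma adjusted p = 0.718). In macrophages it was at 783, 1060 and 1563 (lowest, median and highest of 6) in tumor macrophages, against 703, 833, 669, 1346 and 640.4 in naive macrophages. Naive library 4 stood above the other naive libraries and inside the tumor range. The log2 change was 0.46 ± 0.21 (limma adjusted p = 0.157), and it passed once that library was left out (0.65, adjusted p = 0.0311).

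Nfkb2 and Relb form the noncanonical pair, as p100 or p52 with RelB. Nfkb2 ranged widely among eosinophils, at 764, 3554 and 5648 (lowest, median and highest of 7) in tumor eosinophils, against 1759 and 389 in naive eosinophils. Tumor library 2, at 764, was the one tumor library below a naive one, and the 6 others lay above both. The log2 change of 1.80 ± 0.67 did not pass over all libraries (limma adjusted p = 0.155) and did without tumor library 2 (2.12, adjusted p = 0.0357). It was 0.71 without naive library 2 and 2.89 without naive library 1, and each of these fits leaves 1 naive library. In macrophages Nfkb2 was at 679, 1198 and 1809 (lowest, median and highest of 6) in tumor macrophages, against 954, 554, 878, 745 and 886 in naive macrophages, with tumor libraries 3 and 4 within the naive range (log2 change 0.46 ± 0.22, limma adjusted p = 0.177). Relb was at 57.7, 107 and 151 (lowest, median and highest of 7) in tumor eosinophils, against 77.7 and 30.2 in naive eosinophils. Tumor eosinophil libraries 1 and 2 lay between the 2 naive values and the other 5 above both (log2 change 1.07 ± 0.46, limma adjusted p = 0.224). In macrophages the 2 ranges of Relb nearly coincided, 57.7 to 94.95 in tumor and 58.9 to 96.9 in naive libraries, and the log2 change was −0.01 ± 0.18 (limma adjusted p = 0.98). Its 95% interval, −0.39 to 0.37, bounds the change that this comparison allows.

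The classical inhibitor Nfkbia was lower in tumor libraries of both cell types. It was at 11255, 13607 and 19476 (lowest, median and highest of 7) in tumor eosinophils, against 22098 and 49708 in naive eosinophils. Every tumor eosinophil library lay below both naive ones, a separation that 9.76% of all genes tested in eosinophils showed in that direction. The log2 change of −1.24 ± 0.35 did not pass the adjusted threshold (limma adjusted p = 0.0675). It passed by edgeR's quasi-likelihood test on recovered reads (−1.27, adjusted p = 0.0346). The log2 change was −1.82 without naive library 1 and −0.65 without naive library 2. Each of these fits leaves 1 naive library, assumed to vary like the others. In macrophages Nfkbia was at 6880.4, 7313 and 9514 (lowest, median and highest of 6) in tumor macrophages, against 10118, 9636, 10388, 11616 and 8935 in naive macrophages. Tumor library 2, at 9514, was the one tumor library inside the naive range. The fall of 0.41 ± 0.13 on the log2 scale passed (limma adjusted p = 0.0435). It no longer did when naive library 1, 2, 3 or 4 or tumor library 1, 3, 4, 5 or 6 was left out (−0.36 to −0.43, adjusted p = 0.0625 to 0.105), nor after TMM scaling (−0.35, adjusted p = 0.102) or with look-alike libraries averaged (−0.39, adjusted p = 0.228).

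Nfkbie, which encodes the slower inhibitor IkBε, showed no call. It was at 318, 697 and 845 (lowest, median and highest of 7) in tumor eosinophils, against 752 and 483 in naive eosinophils, with naive values inside the tumor range (log2 change −0.14 ± 0.43, limma adjusted p = 0.888). In macrophages it was at 666, 806.8 and 1041 (lowest, median and highest of 6) in tumor macrophages, against 503, 697, 609.9, 801 and 616 in naive macrophages. The tumor values lay toward the upper end and overlapped the naive ones (log2 change 0.35 ± 0.15, limma adjusted p = 0.135).

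Nfkbiz encodes IkBζ, a nuclear IkB protein required for a subset of secondary response genes. In macrophages it was at 1775, 1935 and 2369 (lowest, median and highest of 6) in tumor macrophages, against 2753, 3084, 2308, 3156 and 2243 in naive macrophages. The highest tumor value, 2369 in library 5, exceeded the 2 lowest naive values, and the other 5 tumor libraries lay below all 5 naive ones. The fall of 0.45 ± 0.13 on the log2 scale passed (limma adjusted p = 0.0271). It did not pass without naive library 1, 2 or 4 or tumor library 3 or 4 (−0.39 to −0.44, adjusted p = 0.052 to 0.0725), after TMM scaling (−0.39, adjusted p = 0.0711) or with look-alike libraries averaged (−0.39, adjusted p = 0.217). In eosinophils Nfkbiz was at 1477, 2696 and 3624 (lowest, median and highest of 7) in tumor eosinophils, against 1440.3 and 4906 in naive eosinophils. The 2 naive libraries lay on either side of the whole tumor range, and no direction could be given (log2 change −0.17 ± 0.47, limma adjusted p = 0.876).

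Bcl3 was the one gene of the 10 called in the same direction in both cell types. It was at 112, 190.4 and 257 (lowest, median and highest of 7) in tumor eosinophils, against 74.8 and 29.0 in naive eosinophils. All 7 tumor libraries lay above both naive ones, as for 7.33% of all genes tested in eosinophils. The log2 change was 1.95 ± 0.40 (limma adjusted p = 0.0176), and it did not pass without naive library 2 (1.28, adjusted p = 0.296), by limma-voom with quality weights (1.96, adjusted p = 0.0806) or without tumor libraries 4 to 7 (1.58, adjusted p = 0.0763). Naive library 2 held 24 recovered reads of the gene. In macrophages Bcl3 was at 109, 144.6 and 193 (lowest, median and highest of 6) in tumor macrophages, against 89.2, 91.2, 72.1, 91.5 and 48.6 in naive macrophages. All 6 tumor libraries lay above all 5 naive ones, as for 5.19% of genes tested there. The log2 change of 0.92 ± 0.20 passed (limma adjusted p = 0.0047) and passed under all 20 alternatives run (0.76 to 0.998, adjusted p = 0.000352 to 0.0361). The locus (chr7:19808462-19822770, minus strand, GENCODE M21) overlaps the antisense genes Gm16174 and Gm16175, and the sources used here do not say whether counting used the strand. Gm16174 was listed at no more than 10.9 in tumor eosinophils, 6.38 in naive eosinophils, 4.7 in tumor macrophages and 11.6 in naive macrophages, and Gm16175 at 0 in all 20 libraries.

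Tnfaip3 fell in tumor eosinophils. It was at 257, 305 and 485 (lowest, median and highest of 7) in tumor eosinophils, against 672 and 990.2 in naive eosinophils. The highest tumor value lay below the lower naive one (log2 change −1.32 ± 0.30, limma adjusted p = 0.0254). The call ended without naive library 2, which leaves 1 naive library (−1.04), and with limma-voom (−1.32, adjusted p = 0.0556). It also ended by limma without tumor libraries 2 and 3 (−1.26, adjusted p = 0.0533) and without 1 to 3 (−1.16, adjusted p = 0.0725). In macrophages it was at 168, 345.7 and 425 (lowest, median and highest of 6) in tumor macrophages, against 269, 586, 291, 565 and 206 in naive macrophages. Libraries that resembled each other over the higher-expressed genes shared its level: naive libraries 2 and 4 held 586 and 565, and tumor libraries 1 and 2 held 171 and 168. The groups overlapped over most of their range (log2 change −0.27 ± 0.32, limma adjusted p = 0.609).

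**Figure D2:**
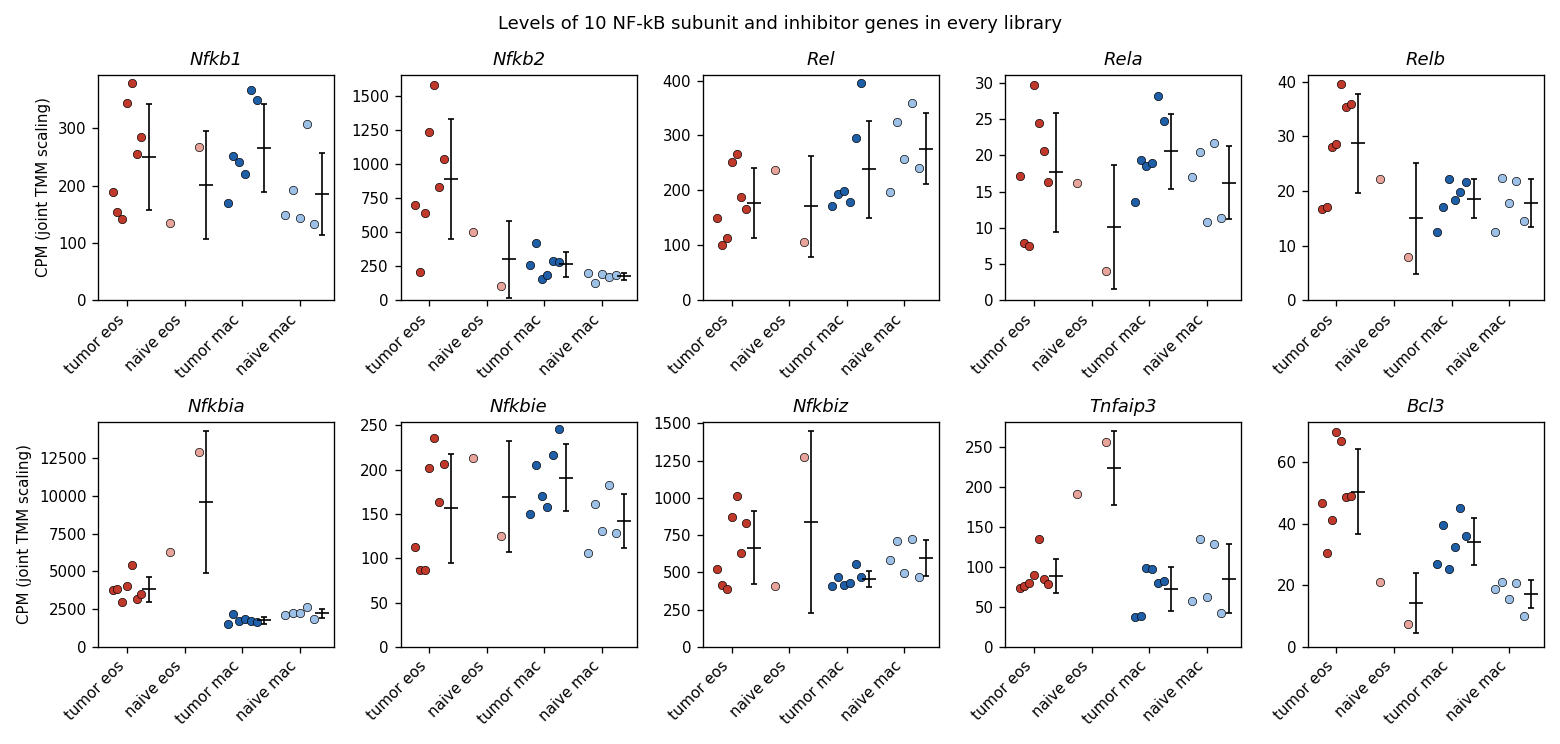
CPM of each gene in every library after joint TMM scaling of all 20 libraries, with the mean and SD of each group beside the points (7 tumor eosinophil, 2 naive eosinophil, 6 tumor macrophage and 5 naive macrophage libraries). Nfkbia is highest in naive eosinophils (6280 and 12900 CPM), and Bcl3 separates tumor from naive libraries in both cell types.

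Immediate-early genes, a list of 21 such as Fos, Jun and Egr1 that respond within minutes to stimuli including tissue digestion, were mostly lower in tumor libraries, as Nfkbia was. They summed to 9410 to 15200 CPM in tumor eosinophils, against 35800 and 42600 CPM in naive eosinophils, and 13 of 20 tested were called lower and 0 higher. In macrophages they summed to 12700 to 26100 CPM in tumor libraries, against 26600 to 35600 CPM in naive ones, with 13 of 20 lower and 1 higher. Tumor macrophage libraries 3 and 4, at 24800 and 26100 CPM, were closest to the naive ones. The part of this response in the levels of Nfkbia, Nfkbiz and Tnfaip3 was not tested.

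Among the tumor eosinophils, the 10 genes differed by library in a shared way. Libraries 4 to 7 lay above libraries 1 to 3 for 8 of the 10, with no overlap. For Tnfaip3 the sets nearly touched, at no more than 304.76 in libraries 1 to 3 and no less than 304.89 in 4 to 7. Rela was also close, at 59.28 and 63.45 in the same order. The exceptions were Relb and Nfkbia, whose values overlapped. No member was lower in libraries 4 to 7. Over all 12967 genes tested, 11.2% were higher without overlap in libraries 4 to 7 and 11.3% were lower. Nfkb1 ran from 1084 to 1358 in libraries 4 to 7 and from 536 to 655 in 1 to 3. Nfkbie ran from 697 to 845 and from 318 to 391 in the same order, and Nfkbiz from 2696 to 3624 and from 1477 to 1808. The labels do not distinguish these libraries, the 2 sets were recognised in the values themselves, and no test applies. The mitochondrial share (15.2 to 23.9% in libraries 4 to 7, 25.1 to 35.2% in 1 to 3), the depth (1978466 to 5928249 and 6157776 to 8520874 reads) and the summed epithelial genes (1300 to 1910 and 3440 to 4060 CPM) also differed without overlap, and their part was not tested. Left without libraries 4 to 7, Nfkb1 and Rel had negative log2 changes against naive eosinophils (−0.27 and −0.43), and without 1 to 3, Nfkbie and Nfkbiz had positive ones (0.35 and 0.25).

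**Figure D3:**
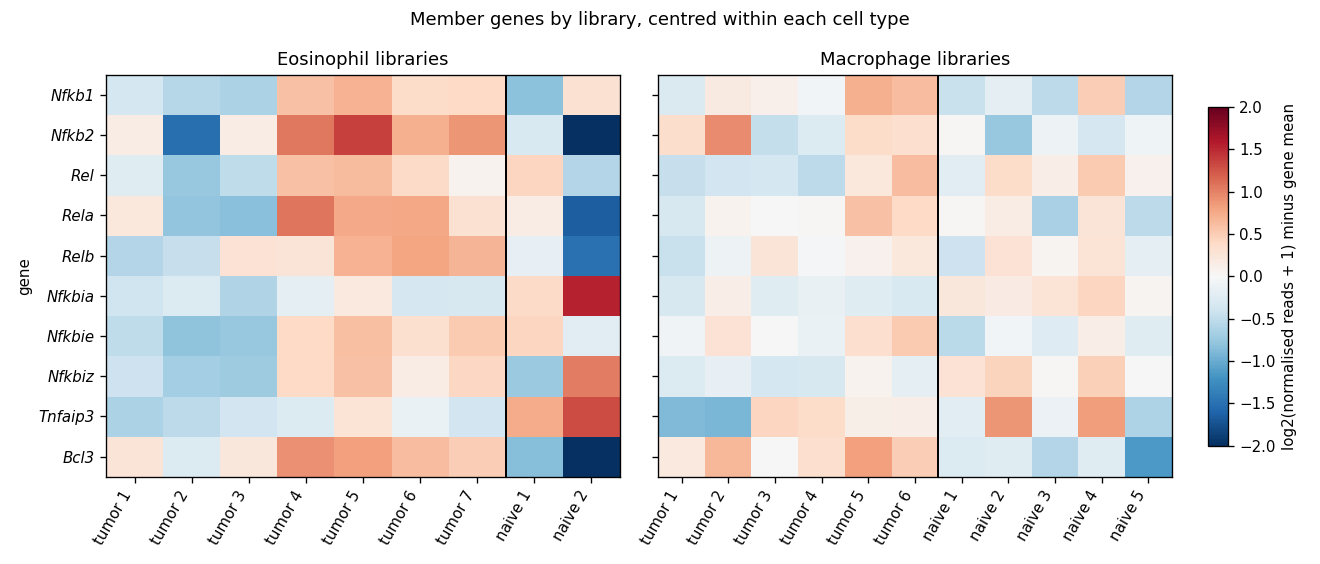
Colour gives log2(normalised reads + 1) of each gene minus its mean over the libraries of that cell type (red above, blue below), with libraries in columns and tumor libraries left of naive ones. Tumor eosinophil libraries 4 to 7 are above libraries 1 to 3 for 8 of the 10 genes. Naive eosinophil library 2 departs from the mean by more than any tumor library for all but Nfkb1, Rel and Nfkbie.

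Whether the tumor change differed between the cell types was tested as the eosinophil change minus the macrophage change in a joint limma fit of the 20 libraries. None of the 10 was called, against 3.9% of 15600 genes tested. At an unadjusted p under 0.05 there were 4 of 10, against 18.3% of all genes, and edgeR's quasi-likelihood test called 0. Those 4 were Nfkbia (−0.93 ± 0.34, adjusted p = 0.132), Tnfaip3 (−1.16 ± 0.51, adjusted p = 0.218), Bcl3 (0.93 ± 0.45, adjusted p = 0.268) and Relb (0.97 ± 0.47, adjusted p = 0.27). Without naive eosinophil library 1 the differences were −1.45 for Nfkbia, 1.67 for Bcl3, 1.71 for Relb and 2.38 for Nfkb2. Without naive eosinophil library 2 they were −0.41, 0.19, 0.23 and 0.07 in the same order. Each of these fits leaves 1 naive eosinophil library. The 95% interval of the Bcl3 difference, 0.008 to 1.86, spans changes from nearly equal in the 2 cell types to far larger in eosinophils.

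Between the cell types, set side by side after joint scaling (CPM by TMM), Nfkbia was highest in eosinophils. It averaged 3820 ± 815 CPM in tumor eosinophils (SD, n = 7) and 9590 ± 4670 in naive eosinophils (n = 2), with 1770 ± 241 in tumor macrophages (n = 6) and 2220 ± 287 in naive macrophages (n = 5). Both eosinophil groups thus stood above both macrophage groups. Of neighbouring groups, the 2 macrophage groups overlapped and the others did not, while 7.75% of genes lay higher without overlap in tumor eosinophils than in tumor macrophages and 19.8% in naive eosinophils than in naive macrophages. The log2 difference was 1.10 ± 0.19 for tumor eosinophils against tumor macrophages (limma adjusted p = 6.77e-05) and 2.03 ± 0.28 for naive eosinophils against naive macrophages (limma adjusted p = 7.17e-06). Tnfaip3 averaged 88.5 ± 21.4 CPM in tumor and 224 ± 46.5 in naive eosinophils, and 72.6 ± 27.9 in tumor and 85.5 ± 43.5 in naive macrophages. Naive eosinophils stood above naive macrophages (1.52 ± 0.42, limma adjusted p = 0.00809, not called without naive eosinophil library 2 at 1.31, adjusted p = 0.108), and the other 3 groups overlapped. Nfkb2 was higher in tumor eosinophils, at 890.0 ± 444 CPM, than in tumor macrophages, at 265 ± 91.7 (log2 difference 1.61 ± 0.37, limma adjusted p = 0.00147), with overlap through tumor eosinophil library 2. Naive eosinophils and naive macrophages differed in Nfkb2 by 0.38 ± 0.56 (limma adjusted p = 0.668). For Nfkb1, Rel, Rela, Relb, Nfkbie and Nfkbiz each group overlapped its neighbour in the order of levels, and for Bcl3 tumor macrophages (34.3 ± 7.64) stood apart from naive macrophages (17.3 ± 4.605). In all, 2 of 10 genes were called between tumor eosinophils and tumor macrophages, against 41.7% of 15600 genes tested with 18.4% higher in eosinophils. By edgeR or after median-of-ratios scaling 4 of 10 were called, with Relb and Bcl3 added, against 45% and 41.6% of all genes. Between the naive cell types 2 of 10 were called, against 28.9% of genes tested and 14% higher in eosinophils. Leaving out naive eosinophil library 1, which leaves 1 naive eosinophil library, gave log2 differences of 1.12 for Nfkbiz, −1.35 for Rel and −1.89 for Rela. Cell type cannot be told apart from the sort and the table here.

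Genes whose levels followed a member most closely over the 20 libraries were found by the root mean square difference in centred log2 level among 13245 genes. For Nfkbia these were Hist1h1c, a linker histone (0.20), the myosin phosphatase subunit Ppp1r12a (0.21) and the kinase Stk17b (0.24), against a median of 1.18 over all genes. For Tnfaip3 they were the exchange factor Arhgef3 (0.32), Mfsd14b (0.33) and the kinase Slk (0.34), against a median of 1.11. For Nfkb1 they were the GTPase Rab20 (0.20), the IKK-related kinase Tbk1 (0.27) and Nab1 (0.28), against a median of 0.99. The points share libraries and scaling, and no test was made.

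The other genes of the pathway were taken from 9 lists ordered by role, 123 genes in all, of which 111 were tested in eosinophils and 112 in macrophages. In eosinophils 20 were called higher and 2 lower, with a median log2 change of 0.64 against 0.009 over all genes tested, of which 4.61% were called (2.42% higher and 2.19% lower). In macrophages 30 were called higher and 11 lower, with a median of 0.29 against 0.025 over all genes tested, of which 17.1% were called (8.5% higher and 8.59% lower). The count of each list is to be read against those shares. Of the IKK complex and its relatives, 0 of 5 were called in eosinophils by limma and 1 in macrophages, the interferon-linked kinase Ikbke (1.33 ± 0.16, limma adjusted p = 4.04e-05). Ikbke averaged 90.4 ± 12.9 in tumor and 35.2 ± 4.35 in naive macrophages (SD, n = 6 and 5), and 89.8 ± 54.1 in tumor and 17.1 ± 3.70 in naive eosinophils (n = 7 and 2), where its log2 change of 2.06 ± 0.64 did not pass (adjusted p = 0.0923). Chuk, Ikbkb and Ikbkg, the 3 subunits of the complex, had log2 changes of −0.22, 0.10 and −0.62 in eosinophils and 0.23, 0.24 and 0.21 in macrophages. None of the 3 other IkB genes, Nfkbib, Nfkbid and Nfkbil1, was called in either cell type (−0.06 to 0.18 in eosinophils and −0.17 to −0.07 in macrophages).

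Of 23 adaptors and upstream kinases tested, 1 rose in eosinophils, Map3k8, which encodes the kinase TPL2 that p105 holds. That count is near the share called over all genes. Map3k8 averaged 37.6 ± 16.2 in tumor and 5.12 ± 6.42 in naive eosinophils (log2 change 3.10 ± 0.70, limma adjusted p = 0.0265). In macrophages Map3k8 fell, to 113 ± 39.5 in tumor libraries, against 180.0 ± 28.0 in naive ones (−0.74 ± 0.23, adjusted p = 0.0396). The difference between the cell types was called (3.93 ± 0.69, limma adjusted p = 0.00184). The eosinophil call rests on 1 recovered read in naive library 1 and ended without that library (1.73, adjusted p = 0.169), and the macrophage call ended when naive library 2, 3, 4 or 5 or tumor library 1, 2 or 5 was left out (−0.59 to −0.78). Irak3, an inhibitory relative of the IRAK kinases, Malt1 and Traf2 rose in macrophages (1.21, 1.03 and 0.65), and Traf5 and Map3k14, which encodes NIK, fell (−0.64 and −0.63). Of 13 ubiquitin editors and partners of A20, 0 were called in eosinophils. In macrophages the A20-binding Tnip1 rose (0.97 ± 0.21, limma adjusted p = 0.00498), while Tnip3 and Tnip2 fell (−0.98 and −0.58, adjusted p = 0.00792 and 0.0175).

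Receptors that feed NF-kB gave 5 higher and 1 lower of 17 tested in eosinophils, and 7 higher and 3 lower of 19 in macrophages. The costimulatory receptor Tnfrsf9 averaged 86.1 ± 32.4 in tumor and 2.90 ± 4.10 in naive eosinophils (log2 change 4.99 ± 0.60, limma adjusted p = 0.00153). That change ran from 3.61 to 6.38 with single libraries left out, and it did not pass with limma-voom (adjusted p = 0.199). Tnfrsf9 averaged 274 ± 138 in tumor macrophages, against a range of 10.7 to 36.4 in naive ones (3.53 ± 0.34, adjusted p = 5.85e-06). The β-glucan receptor Clec7a rose in both (3.63 and 1.66). The LPS co-receptor Cd14, which is also one of the macrophage identity genes, rose in eosinophils to 1030 ± 480, against 61.8 ± 20.2 in naive ones. Tlr2 rose in both (2.76 in eosinophils and 1.21 in macrophages), and Tlr7 and Tnfrsf11a fell in macrophages (−0.81 and −0.44). Il1rl1, the receptor for IL-33, fell in both cell types, by 2.24 ± 0.33 in eosinophils and by 0.95 ± 0.30 in macrophages on the log2 scale. Of 8 ligands tested, 1 rose in eosinophils and 3 in macrophages. Il1a (1.90 ± 0.31) and Il1b (1.17 ± 0.23) rose in macrophages, and Tnf rose in both cell types, in macrophages by 0.55 ± 0.17 and with a larger change in eosinophils (difference 2.78 ± 0.45, limma adjusted p = 0.00113).

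Of chemokine and cytokine targets, 5 of 16 were higher and 0 lower in eosinophils, and 6 of 15 higher and 1 lower in macrophages (median log2 change 1.95 and 0.95). Cxcl5, a neutrophil chemoattractant, averaged 287 ± 96.9 in tumor and 14.0 ± 7.51 in naive eosinophils, and 160.0 ± 65.5 in tumor and 3.79 ± 2.68 in naive macrophages. Its log2 changes were 4.28 ± 0.42 and 5.14 ± 0.33 (limma adjusted p = 0.000701 and 1.97e-07). Ccl20 rose in eosinophils, at 4.83 to 51.6 in tumor libraries and listed at 0 in both naive ones, and Csf3 (3.26) and Il23a (2.88) rose in macrophages. The monocyte chemoattractant Ccl2 fell in macrophages, to 790.0 ± 286 in tumor libraries, against 4220 ± 1270 in naive ones (−2.44 ± 0.25, adjusted p = 1.15e-05), and the cell types differed (5.19 ± 0.68, limma adjusted p = 9.43e-05). Of 12 survival and feedback targets, 3 rose in each cell type and 0 fell. In eosinophils these were Ier3, the anti-apoptotic Bcl2l1 (1.87 ± 0.37, adjusted p = 0.0148) and Traf1 (2.33 ± 0.56, adjusted p = 0.0334), and in macrophages Sod2 (1.48), Ier3 (0.69) and Bcl2a1a (0.81), one of several near-identical copies whose reads may be shared.

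Among adhesion, enzyme and surface targets, 6 of 15 rose and 1 fell in eosinophils, and 7 of 15 rose and 2 fell in macrophages. The siderophore-binding Lcn2, which also stands on the neutrophil list, averaged 1690 ± 628 in tumor and 72.4 ± 35.9 in naive eosinophils, and 393 ± 320.0 in tumor and 14.4 ± 10.3 in naive macrophages. The acute-phase gene Saa3 averaged 780.0 ± 415 in tumor and 63.2 ± 19.1 in naive macrophages (3.50 ± 0.30, limma adjusted p = 2.52e-06). The inducible nitric oxide synthase Nos2 averaged 187 ± 177 in tumor and 2.32 ± 0.80 in naive macrophages (5.42 ± 0.47, adjusted p = 2.52e-06), and 99.5 ± 50.4 in tumor and 3.6 ± 3.45 in naive eosinophils (4.54 ± 0.57, adjusted p = 0.00185). The adhesion receptor Cd44 fell in both cell types, by 1.81 ± 0.42 in eosinophils and 0.96 ± 0.20 in macrophages on the log2 scale. The activation marker Cd83 fell in macrophages, to 1570 ± 275 in tumor libraries, against 2590 ± 326 in naive ones. Of the 16 genes named by the rule in eosinophils, 6 (Cd14, Tnf, Cxcl5, Ier3, Saa3 and Lcn2) were called under all 20 alternatives, as were 20 of 31 in macrophages. Without naive eosinophil library 2 the calls for Clec7a, Il1rl1, Cxcl1, Ccl20, Bcl2l1, Traf1 and Cd44 ended (3.71, −1.79, 1.46, 4.17, 1.73, 1.93 and −1.09), and the number of pathway genes called in eosinophils was 10 in place of 22, with 0.694% of all genes called in place of 4.61%. The Traf1 call also ended without naive library 1 or tumor library 4, 6 or 7 (2.21 to 2.74), and the Cd44 call without tumor library 1 (−1.79). In macrophages, leaving out single libraries ended the calls for Bcl2a1a, Il1rl1, Map3k14, Tnf, Tnfrsf11a, Traf2 and Traf5 (adjusted p = 0.0501 to 0.103), with log2 changes in the same direction.

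**Figure D4:**
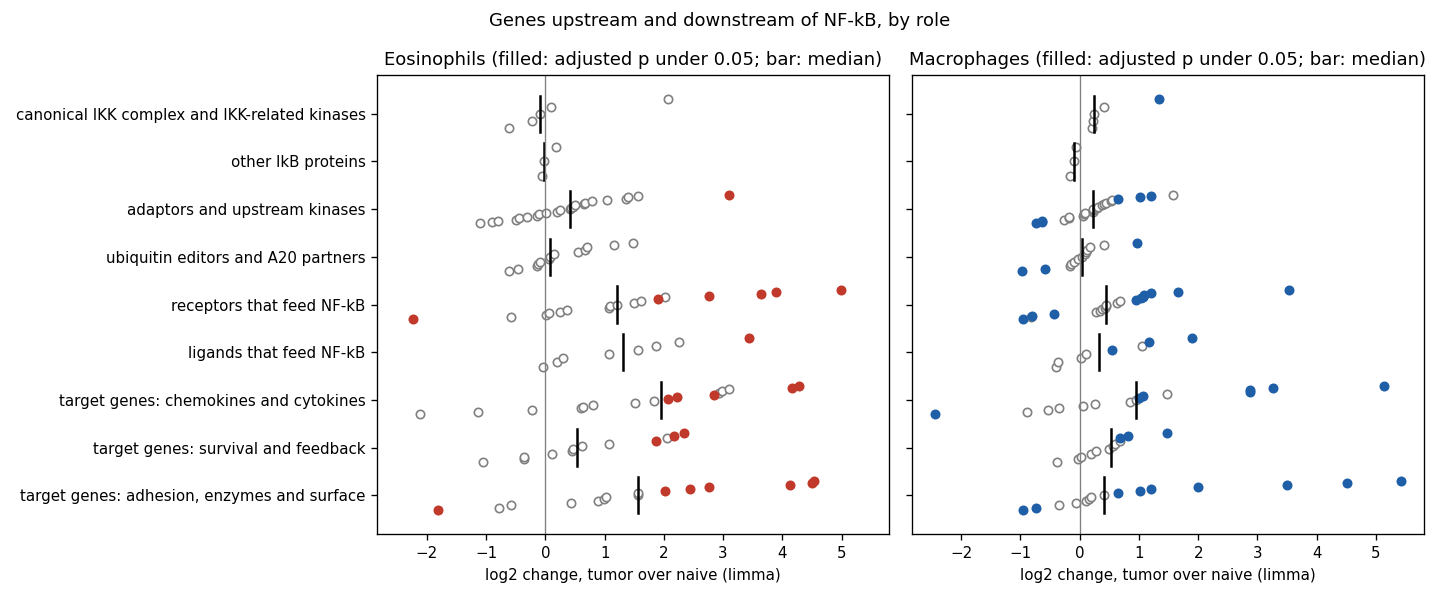
Log2 change, tumor over naive, of each tested gene of the 9 pathway lists (rows) in eosinophils (left) and macrophages (right). Filled points have an adjusted p under 0.05 (limma), and bars mark each list's median. The median of chemokine and cytokine targets is 1.95 in eosinophils and 0.95 in macrophages, while that of the IKK list is −0.09 and 0.24.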

How the data were processed

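Eosinophils and macrophages sorted from mouse colon were profiled by CEL-Seq with 3 technical replicates per sample, per the labels' protocols. The authors deposited, for each cell type, a table of a normalised signal (gene read counts divided by a size factor) for 50600 gene names. Per the submitters' processing notes reads were handled with DESeq2 1.14.1, HTSeq 0.6.1, Bowtie2 2.2.6, TopHat2 2.1.0, Trim Galore and FastQC 0.11.5 on GRCm38.p5, with no settings, order or strand use named. All 374526 non-zero values were whole multiples of 1 read's worth within 0.1 read (100% whole), which gave the reads back. Entries named by a bare number (27, at most 0.1323% of reads) were left out.

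Genes reaching 10 in at least 2 eosinophil or 5 macrophage libraries were tested on log2(value + 1) with limma 3.58.1 in R 4.3.3 (eBayes with trend, two-sided, a mean per group), adjusted by Benjamini-Hochberg over all genes tested, with an adjusted p under 0.05 as a call. The log2(value + 1) scale understates changes of low genes. Contrasts between cell types used recovered reads of all 20 libraries scaled by TMM (edgeR 4.0.16, 10 in at least 2 libraries). Alternatives were edgeR, DESeq2 1.42.0, limma-voom, other pseudocounts (0.5 and 5), scaling, filter, replicate block and libraries left out. Leaving out tumor eosinophil libraries 1 to 3 or 4 to 7, and averaging macrophage libraries that differed with an SD under 0.35, were added after seeing the data. Members, lists and motif were chosen with earlier results of these data known. Of each list, up to 3 called genes per direction and cell type with the smallest p were named, and for Nfkb1, Nfkbia and Tnfaip3 the 3 genes most like them. Coordinates are from GENCODE M21 (GRCm38), and promoter sequences are from RefSeq (GRCm38.p6).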

Additional observations from a re-analysis of the deposited data

Results flagged for a closer look

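In 2 of the 30 groups of 4 to 10 libraries examined for the 10 genes, 1 library stood far from the others, and chance gives about 1 in 20. Naive macrophage library 4 held 1346 normalised reads of Nfkb1, with a gap of 0.726 of the group's range to the next. Tumor macrophage library 2 held 9514 normalised reads of Nfkbia, with a gap of 0.663 of the range.

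The tumor change differed between the cell types by the interaction test for 0 of the 10 subunits and inhibitors and for 16 of 116 pathway genes tested, against 3.9% of all genes. Of these 16, 12 had a positive difference (eosinophil minus macrophage change) and 4 a negative one, Irak1 (−0.97), Birc2 (−1.53), Cxcl3 (−5.12) and Ptgs2 (−2.90). Among the genes named for a small p in one cell type there were 9, all positive. The eosinophil change minus the macrophage change was 5.19 on the log2 scale for Ccl2, 3.93 for Map3k8, 2.78 for Tnf, 2.76 for Cd14, 2.37 for Tnip3, 2.21 for Traf1, 2.2 for Cd83, 1.71 for Cxcl1 and 1.38 for Ier3. Ccl2, Map3k8, Tnip3 and Cd83 were called lower in tumor macrophages. Of these 4, Map3k8 and Ccl2 were also called in eosinophils, where they were higher.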

How the results depend on the processing

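The 10 genes gave 50 results and 1160 alternatives, of which 1073 kept direction and side of the threshold, 30 lost a call, 25 gained one and 32 changed sign. Sign changes were among uncalled results. The number called in eosinophils was 2, and 0 with limma-voom, 1 without tumor libraries 4 to 7 and 0 to 3 with single libraries left out. The share of all genes called there, 4.61%, was 1.52% with limma-voom, 6.6% without tumor libraries 4 to 7, 1.7% with no filter, 11.3% with DESeq2, 8.81% with the replicate block, and 7.23% and 0.694% without naive library 1 and 2. In macrophages the 10 genes gave 3, and 1 with no filter, TMM scaling, look-alike libraries averaged or the replicate block, and 1 to 3 with single libraries left out. All genes called there, 17.1%, were 6.27%, 17%, 8.54% and 10.7% in those 4 settings and 13.4 to 17.1% with single libraries left out. For the difference between cell types it was 0, and 0 to 4 (4 without naive eosinophil library 1). All genes called, 3.9%, were 10.8% and 1.06% without naive eosinophil library 1 and 2, 1.26% with no filter and 2.57% with the block. Between tumor cell types it was 2, and 4 with median-of-ratios scaling or edgeR, and 2 to 4. Between naive cell types it was 2, and 1 to 5. Both ends of that range came from fits that leave 1 naive eosinophil library. The count stayed at 2 with any other single library left out. In those fits 26 to 31% of all genes were called, against 28.9% with all libraries. Pathway genes called in eosinophils were 22, and 38 with DESeq2, 8 with limma-voom and 10 to 24. In macrophages they were 41, and 27 with look-alike libraries averaged or the replicate block, and 32 to 43.

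Replicate numbers did not pair macrophage libraries (same-number correlations −0.31 to 0.06, each with a closer match at another number). In eosinophils each naive library matched the tumor library of its own number best, at weak correlations of 0.13 and 0.12. With 2 naive libraries this cannot show whether the numbers pair eosinophil libraries. With the replicate block, 2 eosinophil members and 24 pathway genes were called, and the log2 change turned to −0.21 for Nfkb1 and −0.42 for Rel in eosinophils and to −0.26 for the Nfkbiz difference. Without tumor eosinophil libraries 4 to 7, Nfkb1 (−0.27) and Rel (−0.43) turned. Without libraries 2 and 3, Nfkbie (0.16) and Nfkbiz (0.09) did, and without 1 to 3 likewise (0.35 and 0.25). Relb in macrophages turned with TMM scaling (0.052) and averaged look-alikes (0.067), and ran from −0.115 to 0.08 with single libraries left out. With single libraries left out, mostly a naive eosinophil one, signs also turned for eosinophil changes of Nfkb1 (−0.23 to 0.89), Nfkbie (−0.46 to 0.18), Nfkbiz (−1.06 to 0.71) and Rel (−0.41 to 0.61), for differences of Nfkb1 (−0.74 to 0.25), Nfkbiz (−0.65 to 0.99), Rel (−0.26 to 0.90) and Rela (−0.38 to 1.56), and for naive cell type contrasts of Bcl3 (−1.14 to 0.34), Nfkb1 (−0.38 to 0.61), Nfkb2 (−0.78 to 1.53), Nfkbie (−0.16 to 0.62), Nfkbiz (−0.52 to 1.12), Rela (−1.89 to 0.05) and Relb (−1.13 to 0.35). The cause was not tested. The 2 naive eosinophil libraries limit every eosinophil result.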
